A study of Mus musculus with 4 samples.

Results

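Solute carrier genes were examined in 2 mutant libraries made in haploid neural stem cell-like cells of the mouse. A gene was taken as a member when its symbol in either deposited table was Slc, a family number and a further suffix. The Slc8, Slc11, Slc30, Slc39 and Slc40 families, which carry calcium and transition metals, were left out. The rule found 109 members among the 5614 genes of both tables together, 78 in library 1 and 57 in library 2, with 26 in both. The members came from 31 carrier families. All 109 matched a RefSeq gene of the same symbol, but 3 of them are not carriers. Slc4a1ap encodes kanadaptin, a protein named for its binding to the Slc4a1 anion exchanger, and Slc6a19os and Slc7a6os are genes named for lying on the strand opposite a carrier gene.

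Solute carriers are membrane proteins that move amino acids, sugars, ions, nucleotides, vitamins and metabolites across the plasma membrane and the membranes of organelles. They work by facilitated diffusion, by cotransport with sodium or protons, or by exchange, and a family number groups proteins of related sequence that often share a kind of substrate. In the nervous system, carriers clear glutamate, GABA and monoamines from synapses, fill synaptic vesicles, set intracellular chloride and pH, and bring glucose, lactate and amino acids to neurons and glia.

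Both libraries were made from cells with 1 chromosome set and a 129Sv strain background. Haploid embryonic stem cells had formed embryoid bodies and were then grown in N2B27 medium with FGF2, EGF, the BMP receptor inhibitor LDN193189, the activin/TGF-beta receptor inhibitor SB431542 and a ROCK inhibitor, which was Y-27632, Thiazovivin or a mixture of these. All cells had received a gene trap plasmid that carries a piggyBac transposon, together with its transposase, followed by G418 selection, and no treatment in the labels separates the libraries. Genomic DNA next to the transposon was amplified by splinkerette PCR, in which an adapter that is partly single-stranded gives a primer site on the genomic side, and was then sequenced. RNA was not measured, so the neural stem cell-like identity could not be checked against marker genes, and the trap cassette's design is not given in the sources used here. The 4 samples are pooled as 2 per table with no value per sample. No comparison between the libraries therefore has a replicate check, no test was possible, and every interval below covers counting error only.

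Library 1 held 55442 nonredundant and 877870 redundant reads over 4184 genes, and library 2 held 48750 and 1300140 over 3168 genes. The sources do not define nonredundant reads. They are taken here to carry fewer PCR copies than redundant reads, so the values below are nonredundant reads unless stated. Reads are PCR products without molecular identifiers, and neither column counts independent insertions or cells. Because a table lists a gene only if it has at least 1 read, an unlisted gene has 0 reads, which allows a share of up to 0.00541% of library 1 or 0.00615% of library 2 (3 reads of the total).

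Reads in solute carrier genes were dominated by a single gene in each library, a different gene each time. Slc5a4a, a member of the sodium-glucose cotransporter family, took 278 of the members' 559 reads in library 1, or 49.7%. Slc36a2, a proton-coupled transporter of small amino acids such as glycine and proline, took 394 of their 581 reads in library 2, or 67.8%. The next members were Slc1a4, an exchanger of serine and other neutral amino acids, with 64 reads in library 1, and Slc9a9, an endosomal sodium-proton exchanger, with 36 reads in library 2. Of all 109 members, 63 had exactly 1 read in total, or 57.8%, beside 46.7% of all listed genes.

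Slc5a4a is printed here beside its neighbour Slc5a4b because they are related genes next to each other on chromosome 10, and reads of near copies can be hard to assign. The windows run from 250 bases before to 50 bases after the annotated start, from RefSeq on build GRCm38.p6, whereas the reads were mapped to mm9. The Slc5a4a window lies at chr10:76147201-76147500 on the plus strand and the Slc5a4b window at chr10:76110969-76111268 on the minus strand. Capitals mark TTAA, the sequence at which piggyBac integrates, which reads the same on both strands.
Slc5a4a: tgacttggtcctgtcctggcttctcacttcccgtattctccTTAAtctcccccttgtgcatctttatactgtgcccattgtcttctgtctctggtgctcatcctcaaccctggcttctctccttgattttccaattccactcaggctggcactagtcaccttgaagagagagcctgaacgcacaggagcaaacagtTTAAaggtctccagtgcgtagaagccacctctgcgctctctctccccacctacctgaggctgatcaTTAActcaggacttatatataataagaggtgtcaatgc
Slc5a4b: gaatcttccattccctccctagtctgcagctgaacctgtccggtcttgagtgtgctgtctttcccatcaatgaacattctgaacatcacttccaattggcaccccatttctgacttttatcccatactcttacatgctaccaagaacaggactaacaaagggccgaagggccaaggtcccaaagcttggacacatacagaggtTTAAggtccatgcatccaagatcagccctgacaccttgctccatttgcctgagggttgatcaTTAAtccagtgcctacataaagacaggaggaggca
TTAA occurred 3 times in the Slc5a4a window and 2 times in the Slc5a4b window, and the longest run shared by both was 10 bases. TTAA was found in 52.8% of the 108 windows of the 85 members in the table, against 52.4% of all 32851 windows. The match is a description of the letters. The tables give no insertion positions, so whether an insertion lies in either window is not known.

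The neighbouring genes differed in their reads. Slc5a4a had 278 reads in library 1 and 23 reads in library 2, and Slc5a4b had 5 and 1. Human SGLT3, encoded by the related human gene, is known as a glucose sensor more than as a glucose transporter. The other annotated neighbour of Slc5a4a, Prmt2, was listed in neither library. Slc5a4a held 0.501% of the reads of library 1 (95% exact binomial interval 0.444 to 0.564), which placed it 36th among all genes there, and 0.0472% of library 2 (0.0299 to 0.0708), where it was 190th. Its share was 10.6 times as high in library 1 as in library 2 (exact conditional interval 6.94 to 17.0). Slc5a4a was thus high in library 1 and also above most members in library 2.

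Slc36a2 had 2 reads in library 1 and 394 reads in library 2. It made up 0.00361% of library 1 (95% interval 0.000437 to 0.0130), against 0.808% of library 2 (0.731 to 0.892), 224-fold lower in library 1 than in library 2 (interval of the fold 61.6 to 1856). It ranked 19th among all genes of library 2. The neighbouring genes Slc36a1 and Slc36a3, which encode related proton-coupled amino acid transporters, were listed in neither library, so all reads of the family were in Slc36a2.

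**Figure D1:**
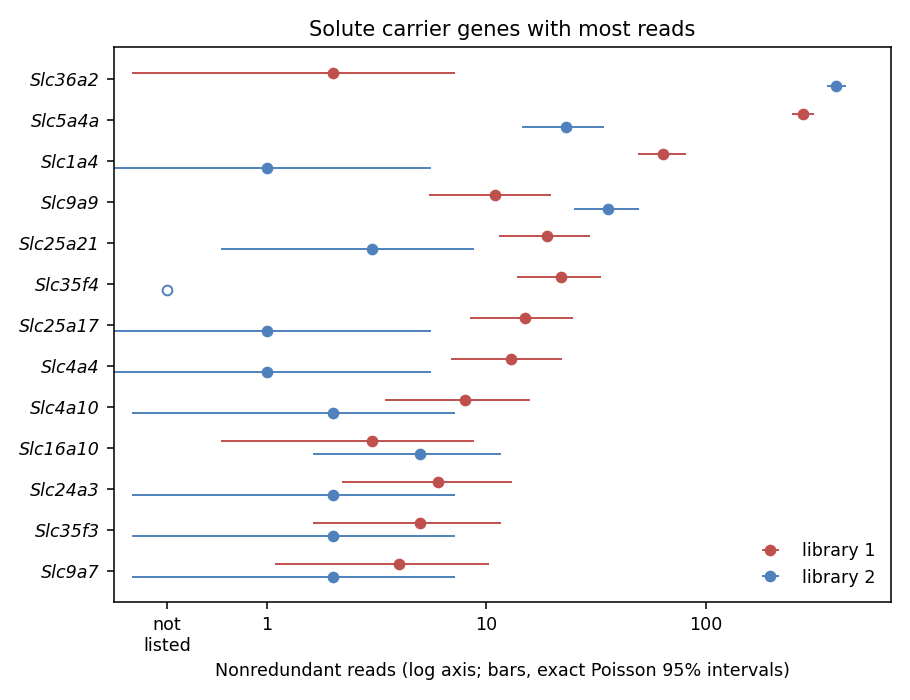
Nonredundant reads (log axis) of 13 solute carrier genes with 10 or more reads in a library or 2 or more in each, with library 1 above library 2 in each row, exact Poisson 95% intervals as bars cut at the left edge of the plot, and open circles for genes not listed. Slc5a4a (278 and 23 reads) and Slc36a2 (2 and 394 reads) stand far to the right of the other members, and Slc5a4a and Slc9a9 (11 and 36 reads) are the members with 10 or more reads in both libraries.

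Amino acid carriers held most of the members' reads in library 2 through Slc36a2 alone. Substrate classes were set by family number, so a class can hold genes with another substrate or none. Of 83 annotated genes of the amino acid and neurotransmitter class, 22 were listed, or 26.5%, beside 26.6% of all annotated genes. These 22 include Slc7a6os. With Slc6a19os they held 86 reads in library 1 and 418 in library 2. When Slc36a2 is set aside, 84 and 24 reads remain. In the Slc1 family, 4 of 7 annotated genes were listed. Slc1a4 had 64 reads in library 1 and 1 read in library 2, a share 56.3 times as high in library 1 (interval 9.74 to 2257). The glutamate transporters had fewer reads than Slc1a4 in library 1, while the median over all listed genes was 1 read in each library. Slc1a2, the main glutamate transporter of astrocytes, had 1 read in library 1 and 7 in library 2, where it ranked 342nd among all genes. Slc1a1, the neuronal glutamate transporter, had 6 and 1, and Slc1a3, a marker of radial glia and astrocytes, had 1 read in library 1 alone. Slc1a4 held 80.2% of the family's summed reads, nearly all in library 1.

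Outside Slc1 and Slc36, no gene of the amino acid families was above 4 reads in a library. In the Slc6 family of sodium- and chloride-dependent neurotransmitter transporters, 5 of 21 annotated genes were listed, or 23.8%, beside 26.6% of all annotated genes. The GABA transporter gene Slc6a11 had 3 reads in library 2, while Slc6a17, a vesicular neutral amino acid transporter, had 1 in library 1. Slc6a20a, a carrier of proline and related imino acids, and the opposite-strand gene Slc6a19os had 1 each in library 2. The remaining Slc6 genes were the neighbour and near copy of Slc6a20a, Slc6a20b, and the serotonin transporter gene Slc6a4, with 1 read each in library 1. Reads of the 2 Slc6a20 genes may be hard to tell apart, and the assignment rule is not known. All 6 listed Slc6 symbols were in 1 library only, as were 76.1% of all members and 69.0% of all listed genes. Of the Slc7 family 4 of 16 were listed, or 25%, a count that includes the opposite-strand gene Slc7a6os. Each had 1 read, among them the cystine-glutamate exchanger gene Slc7a11 in library 2. Slc3a2, the heavy chain shared by several Slc7 exchangers, had 4 reads in library 1.

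Vesicular carriers had at most 2 reads in a library. Slc17a6, which loads glutamate into synaptic vesicles, and the lysosomal sialic acid exporter gene Slc17a5 had 2 reads each in library 2. In the Slc17 family 3 of 9 annotated genes were listed, or 33.3%, beside 26.6% of all annotated genes. The Slc18 and Slc32 families, which load amines, acetylcholine, GABA and glycine into vesicles, had 0 of 4 and 0 of 1 annotated genes listed. These are too few genes to set against the share of all genes.

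Among sugar and nucleotide sugar carriers, 20 of 61 annotated genes were listed, together holding 331 reads in library 1 and 44 in library 2. Without Slc5a4a the class held 53 and 21 reads. Of the Slc2 hexose transporters 7 of 12 were listed, or 58.3%, and 4 of these 7 had 1 read in all. Slc2a13, a proton-coupled myo-inositol transporter of the brain, had 8 reads in library 1 and 1 in library 2. The glucose transporter gene Slc2a12 had 5 reads in library 1, the urate transporter gene Slc2a9 had 2 and 1, and Slc2a10 had 1 in library 2. The neuronal glucose transporter gene Slc2a3 also had 1 read, in library 2. In the Slc5 family 6 of 13 were listed, or 46.2%, and all but Slc5a4a and Slc5a4b had 1 read. Among these were the inositol carrier gene Slc5a11 in library 2 and the lactate carrier gene Slc5a12 in library 1.

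The Slc35 family carries nucleotide sugars into the Golgi apparatus and endoplasmic reticulum, and its F subgroup is poorly characterised. Of 27 annotated Slc35 genes 5 were listed, or 18.5%, beside 26.6% of all annotated genes. Of these 5 genes, 4 belong to the F subgroup, of which 6 genes are annotated. This subgroup was singled out after its values were seen. Slc35f4 had 22 reads in library 1 but was not listed in library 2. With 3 reads in place of 0, its share was 6.45-fold higher in library 1 (exact lower limit of the ratio 4.82). Slc35f1 had 1 and 7 reads, Slc35f3 had 5 and 2, and Slc35f5 had 1 in library 1. Slc35d1, which carries UDP-sugars into the endoplasmic reticulum, had 3 reads in library 2. The F genes are long, with a median length class of 9 among 10 classes of annotated genes, and of all genes in class 9, 57.0% were listed, whereas the median class of every other subgroup lies between 3.5 and 7.

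Carriers of inorganic ions and protons were listed for 28 of 60 annotated genes, or 46.7% (95% interval 33.7 to 60.0), beside 26.6% of all annotated genes. The median length class of the annotated genes was 8 here, against 6 or 7 in the other substrate classes, and 42.0% of all genes in length class 8 were listed. Among sodium-proton exchangers of the Slc9 family, the endosomal exchanger gene Slc9a9 had 11 reads in library 1 and 36 in library 2, a share 3.72-fold lower in library 1 (interval 1.85 to 8.11). The exchanger gene Slc9b1 had 9 reads in library 1 alone and the Golgi-resident exchanger gene Slc9a7, on the X chromosome, had 4 and 2. The direction for Slc9a9 is turned by redundant reads, of which it had 196 in library 1 and 126 in library 2.

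Bicarbonate transporters of the Slc4 family were listed for 6 of 11 annotated genes, or 54.5%, beside 26.6% of all annotated genes. The 6 include kanadaptin. The median length class of annotated Slc4 genes was 7, in which 30.7% of all genes were listed. Slc4a4, the electrogenic sodium bicarbonate cotransporter, had 13 reads in library 1 and 1 in library 2, a share 11.4 times as high in library 1 (interval 1.72 to 486). Slc4a10, a sodium-dependent bicarbonate transporter of neurons, had 8 and 2 reads, the related Slc4a8 had 3 in library 1, and Slc4a1ap had 1 in library 1. Of the potassium-dependent sodium-calcium exchangers, Slc24a3 had 6 and 2 reads and Slc24a2 had 1 and 2. Of 9 annotated genes of the Slc12 family of cation-chloride cotransporters, some of which set neuronal chloride, 5 were listed, or 55.6%. The median length class of annotated Slc12 genes was 9, in which 57.0% of all genes were listed. The family reached at most 3 reads, in Slc12a8 in library 1. Slc12a2, which takes up chloride, Slc12a5, which extrudes it from neurons, and Slc12a4 had 1 read each in library 2.

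Mitochondrial carriers of the Slc25 family form the largest carrier family. Of 47 annotated genes 11 were listed, or 23.4%, beside 26.6% of all annotated genes. They had 40 reads in library 1 and 14 in library 2. Slc25a21, a carrier of oxodicarboxylates, had 19 reads in library 1 and 3 in library 2 (share ratio 5.57, interval 1.64 to 29.4). Slc25a17, a member of the family that works in the peroxisomal membrane, had 15 and 1 (share ratio 13.2, interval 2.03 to 555). Slc25a40, which has been linked to glutathione import into mitochondria, had 7 reads in library 2, and Slc25a24, which exchanges ATP-magnesium for phosphate, had 2 there. The other 7 listed genes had 1 read each. Reads of this family thus lay mainly in library 1 and in 2 genes.

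Carriers of organic ions, nutrients and metabolites had no gene with 10 reads. Of 90 annotated genes 27 were listed, or 30%, beside 26.6% of all annotated genes. They had 28 reads in library 1 and 19 in library 2. Slc16a10, a transporter of aromatic amino acids in the monocarboxylate family, led with 3 reads in library 1 and 5 in library 2. Slc13a3, a cotransporter of sodium and dicarboxylates, had 5 reads in library 2. Slc22a23, an orphan member of the organic ion transporters, had 3 and 1 reads, the organic cation transporter gene Slc22a3 had 2 in library 1, and Slc22a18 and Slc22a2 had 1 each in library 1. In all, 7 of 25 annotated Slc22 genes were listed, or 28%.

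**Figure D2:**
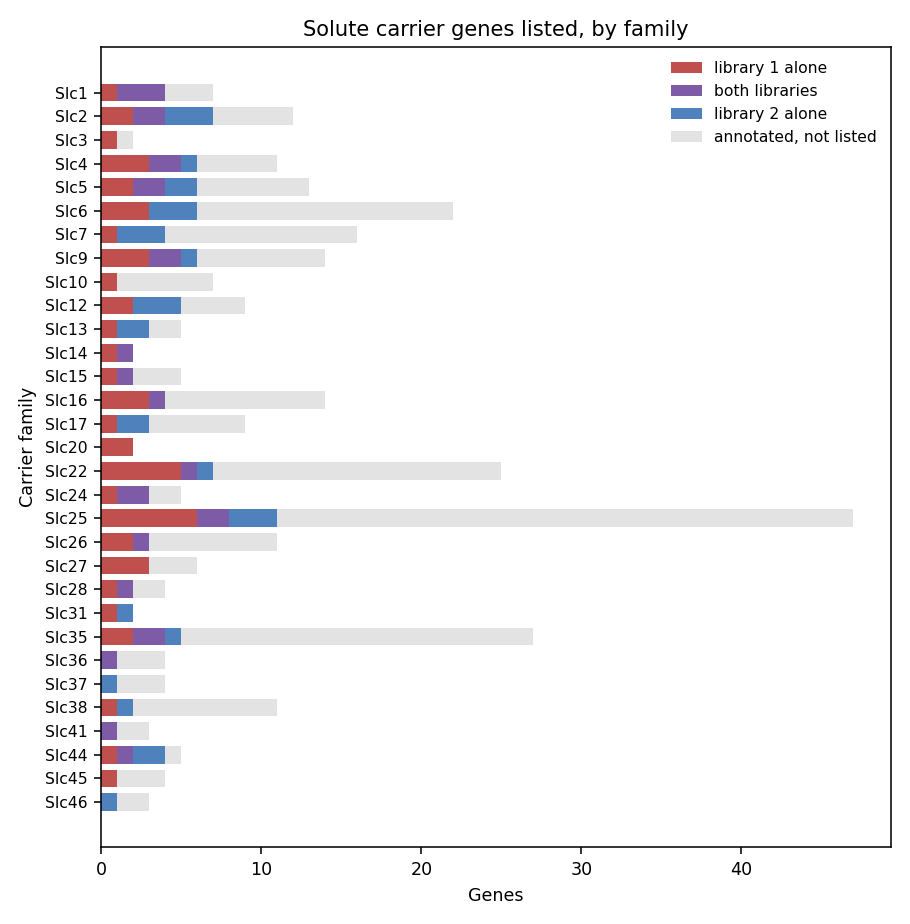
Solute carrier genes by family, with bars stacked for genes listed in library 1 alone, in both libraries, in library 2 alone, and annotated but not listed, for the 31 families with a listed member. The Slc25 family has 11 of 47 annotated genes listed (23.4%), the Slc35 family 5 of 27 (18.5%) and the Slc2 family 7 of 12 (58.3%). Of all annotated genes 26.6% were listed, and these family shares are given without intervals. The Slc6 bar also holds Slc6a19os, which is not among the annotated mRNA genes.

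Families without any listed member numbered 15 of 46 and were small, holding 34 annotated genes in all. Among them, Slc66 has a gene listed under an older symbol, which the rule on symbols did not take as a member. Several carriers that many proliferating cells use for fuel and amino acids were also unlisted in both libraries, namely the glucose transporter gene Slc2a1, the lactate transporter gene Slc16a1 and the amino acid transporter genes Slc7a5, Slc1a5 and Slc38a2. These 5 were chosen after their values were seen. They lie in length classes 5 to 7, in which most solute carrier genes were unlisted, so an absence of reads does not set them apart.

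Set against the annotation, a slightly larger share of solute carrier genes than of all genes was listed, and a slightly smaller share reached 10 reads. Of 344 annotated Slc genes with a curated mRNA, 109 were listed in either library, or 31.7% (95% interval 26.8 to 36.9), against 26.6% of 21035 annotated genes, which lies just below that interval. This count of 109 is not the set of members: it leaves out Slc6a19os, which has no curated mRNA, and includes Slc66a2, listed in library 1 with 1 read under its older symbol Pqlc1. By library, 79 Slc genes (23.0%) were listed in library 1 and 56 (16.3%) in library 2, beside 19.9% and 15.0% of all genes. In both libraries 26 Slc genes (7.56%) were listed, beside 8.25% of all genes. At 10 or more reads in either library the shares were 2.62% of Slc genes (1.20 to 4.91) and 3.56% of all genes. These intervals treat genes as independent draws and no test of the differences was made.

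Long solute carrier genes were listed more often than short ones, as were long genes in general. By their length in GRCm38.p6, annotated genes were put into 10 equally large classes. In the longest class 24 of 27 Slc genes were listed, or 88.9% (95% interval 70.8 to 97.6), against 81.7% of all genes of that class. In classes 9 and 10 together 61.1% of Slc genes were listed (48.9 to 72.4), against 69.3% of all genes. In classes 7 and 8 the shares were 34.1% (25.8 to 43.2) and 36.3%, and in classes 4 to 6 they were 17.5% (11.1 to 25.8) and 15.6%. In classes 1 to 3 they were 8.57% (1.80 to 23.1), or 3 of 35 Slc genes, and 2.76% of all genes. In each of these 4 ranges the share of all genes lay inside the interval of the Slc genes. Over coarser ranges it did not: in classes 1 to 5 the shares were 16.2% of Slc genes (9.72 to 24.7) and 6.75% of all genes, and in classes 6 to 10 they were 38.5% (32.3 to 45.0) and 46.5%. Within the shorter range, Slc genes lie mostly in its longer classes, with 38 in class 5 and 1 in class 1.

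**Figure D3:**
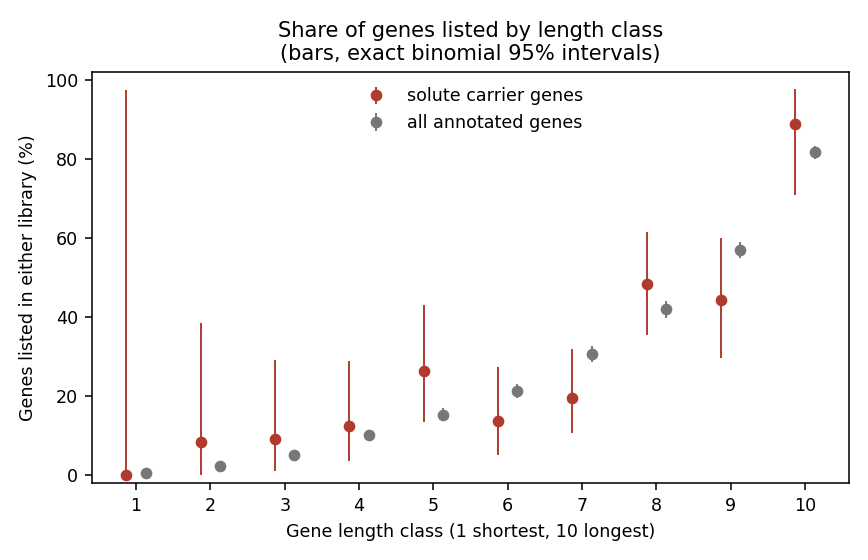
Share of genes listed in either library (percent) by gene length class, for solute carrier genes and all annotated genes, with exact binomial 95% intervals; class 1 holds 1 Slc gene. The share of all genes climbs with each class to 81.7% in the longest, and the share of Slc genes climbs less evenly to 88.9%.

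The 3 members with most reads, Slc36a2, Slc5a4a and Slc1a4, were not in the longest class. Of the 9 members with 10 or more reads in a library, 4 were in the longest class and 5 in classes 6 to 9, and none was shorter. In the longest class 14.8% of annotated Slc genes had 10 or more reads in a library, beside 19.2% of all genes there. In classes 6 to 10 the shares were 3.77% and 6.63%, and in classes 1 to 5 they were 0% and 0.494%. Per length, Slc36a2 had 7.51 reads per 100 kb of gene in library 1 and 1479 in library 2, and Slc5a4a had 665 and 55.0. Slc1a4 had 210 reads per 100 kb in library 1 and 3.28 in library 2. In contrast, Slc9a9, the longest listed member, had 1.96 and 6.42 reads per 100 kb, and Slc25a21 had 3.92 and 0.619. In its higher library, each of the 3 leading members stood above Slc9a9 by more on this scale than on the scale of reads. Division by length lowers Slc9a9 most, because it is the longest. In library 2 Slc1a4 was below Slc9a9 on both scales. Among the 26 members in both libraries, 18 were in the longest 2 classes.

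Few members had strong support, as in the libraries as a whole. In library 1, 7 of 78 listed members had 10 or more reads, or 8.97% (95% interval 3.68 to 17.6), beside 11.9% of all genes listed there and 2.37% of all annotated genes. In library 2, 4 of 57 had 10 or more, or 7.02% (1.95 to 17.0), beside 9.28% of listed and 1.40% of annotated genes. At 2 or more reads the shares were 35.9% in library 1 (25.3 to 47.6) and 36.8% in library 2 (24.4 to 50.7), beside 46.3% and 40.3%. At 100 or more reads, Slc5a4a in library 1 and Slc36a2 in library 2 were the only members, 1.28% and 1.75% of those listed, beside 3.01% and 2.46%. The other 100 members, those under 10 reads in both libraries, reached at most 9 reads, with 135 in library 1 and 88 in library 2 over all of them. Of these, 31 had 2 or more reads in a library.

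The members' lists overlapped in 26 genes, which is 33.3% of the members in library 1 and 45.6% of those in library 2, beside 41.5% and 54.9% for all listed genes. Of the members 9 had 2 or more reads in each library, 2.62% of annotated Slc genes, beside 3.15% of all annotated genes. Besides Slc5a4a, Slc36a2, Slc9a9 and Slc25a21 these were Slc4a10, Slc24a3, Slc35f3, Slc9a7 and Slc16a10. Slc5a4a and Slc9a9 were the members with 10 or more reads in both, 0.581% of annotated Slc genes, beside 43 genes or 0.204% of all annotated genes. A further 6 members had exactly 1 read in each library.

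Differences between the libraries were called only for members with 10 or more reads in the higher library, a minimum that most of them met in that library alone. A share over 10-fold higher, with at least 10 reads in the higher library and 3 reads in place of 0, was found for 4 of 109 members in library 1, namely Slc5a4a, Slc1a4, Slc25a17 and Slc4a4. This is 3.67% of the members, beside 5.45% of all listed genes. In library 2 the call was made for 1.83% of members, Slc36a2 among them, beside 3.28% of all listed genes. Slc35f4, with 22 and 0 reads, did not pass because of the floor of 3 reads. That floor replaced only 0, so Slc1a4, Slc25a17 and Slc4a4 passed against 1 read in library 2. The lower limits of the ratio lay below 10 for all 4 members called in library 1. They were 6.94 for Slc5a4a, 9.74 for Slc1a4, 2.03 for Slc25a17 and 1.72 for Slc4a4. With the 10 leading genes of each library left out of the totals, every share in library 2 rises relative to library 1. Slc1a4 alone of the 4 members then passed in library 1, and Slc36a2 passed in library 2. No share over all listed genes is given for this setting.

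**Figure D4:**
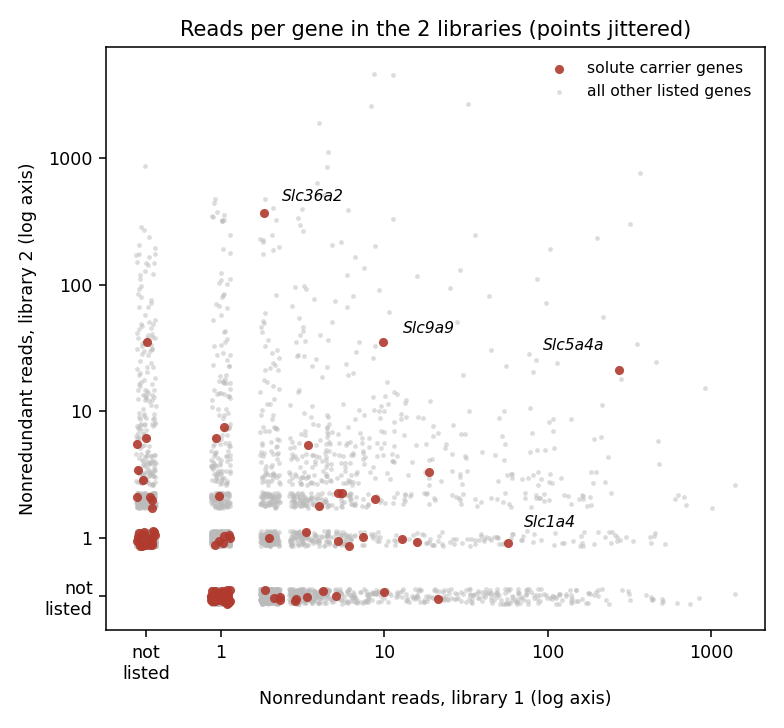
Nonredundant reads in library 1 (horizontal, log axis) and library 2 (vertical, log axis) for the 109 solute carrier genes and for all other listed genes, with unlisted genes on the lower and left margins and points jittered. Most members crowd at 1 read or at a margin, and Slc9a9 (11 and 36 reads) and Slc5a4a (278 and 23 reads) lie inside the field at 10 or more reads in both.

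Together the members held 1.01% of the reads of library 1 (95% interval 0.927 to 1.09), against 1.19% of those of library 2 (1.10 to 1.29). The ratio of these shares was 0.846 (interval 0.752 to 0.952). It turned on the leading gene of each library: without Slc5a4a in library 1 and Slc36a2 in library 2 the shares were 0.507% and 0.384% and the ratio was 1.32.

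Redundant reads per nonredundant read were unevenly spread over the members. Redundant reads of the members summed to 4326 in library 1, or 0.493% of all, and to 6894 in library 2, or 0.530%. Each nonredundant read thus stood for 7.74 redundant reads in library 1 and 11.9 in library 2, beside 15.8 and 26.7 over all genes. Both counts were equal for 47 of the 78 members in library 1 (60.3%) and 36 of the 57 in library 2 (63.2%), beside 56.4% and 56.2% of all listed genes. The members with most nonredundant reads also had the most redundant ones, Slc5a4a with 2913 in library 1 and Slc36a2 with 6344 in library 2. Slc1a4 had 673 redundant reads in library 1. In library 2 its 1 nonredundant read stood for 40 redundant reads, the most behind 1 nonredundant read of any member. Slc9a9 had fewer nonredundant but more redundant reads in library 1 (11 nonredundant and 196 redundant) than in library 2 (36 and 126), so the lean of this gene depends on the kind of read. Of the 63 members with 1 nonredundant read in all, 53 also had just 1 redundant read, or 84.1%, beside 77.7% for all genes with 1 nonredundant read in all.

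**Figure D5:**
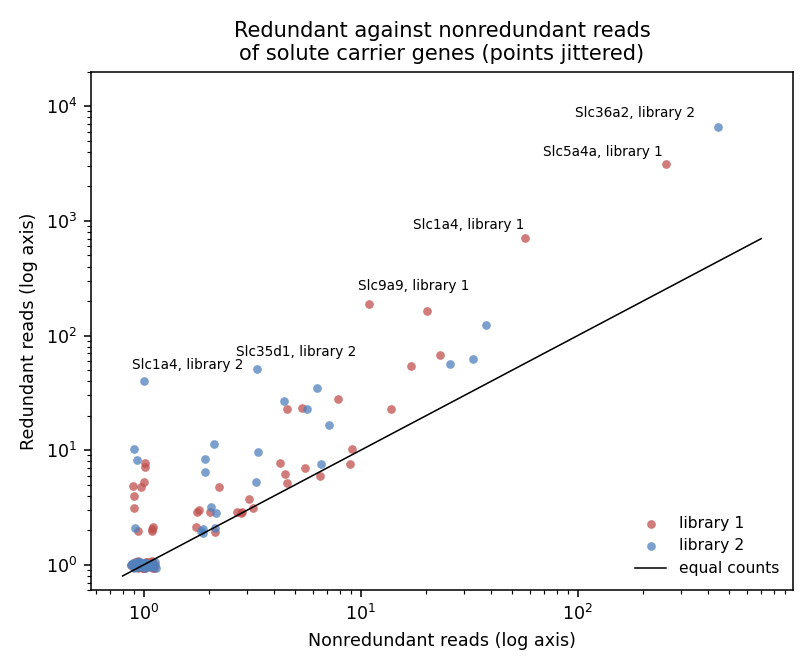
Redundant against nonredundant reads (both log axes, points jittered) of the members in library 1 and library 2, with a line at equal counts. Of the members 47 in library 1 and 36 in library 2 lie on the line, most of them at 1 read, and Slc36a2 in library 2 (394 nonredundant and 6344 redundant reads) and Slc5a4a in library 1 (278 and 2913) lie highest.

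Overlapping genes hardly touched the members. Only Slc31a1, a copper transporter gene, and Slc5a6, the sodium-dependent multivitamin transporter gene, overlapped another listed gene in the GRCm38.p6 annotation, Fkbp15 and Atraid. Each of these members and its partner had the same 1 read in the same library, so a read there may have been counted for both. None of the 9 members with 10 or more reads overlapped a listed gene. On the X chromosome, 4 of 13 annotated Slc genes were listed, or 30.8% (95% interval 9.09 to 61.4), beside 21.5% of all X-linked genes.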

How the data were processed

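Genomic DNA of 4 samples was measured, and the authors deposited 1 table for each pool of 2 samples. Per the file headers, each table names a gene with its transcripts and gives counts of nonredundant and of redundant reads. Both are raw whole-number counts as deposited, without normalization, and 0 further columns were left unused. CASAVA, BWA and build mm9 are named, without versions, per the submitters' processing notes. The rule that assigns reads to genes and the definition of nonredundant reads are not given in the sources.

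From these counts, shares of a library, Clopper-Pearson 95% intervals and exact conditional intervals of share ratios were computed (Python 3.11.15, pandas 2.3.3, NumPy 2.4.6, SciPy 1.17.1). The computation was checked on simulated reads drawn independently, as the intervals assume, so the check does not cover PCR copies. The total was 55442 nonredundant reads in library 1 and 48750 in library 2. A ratio is library 1 over library 2 unless stated, and 0 reads were set to a floor of 3. Genes were matched through transcripts, symbols and synonyms to RefSeq GRCm38.p6 (4182 of 4184 and 3167 of 3168 genes), whose lengths served to class genes. Annotated genes are the 21035 with a curated mRNA. No test was run, because there is 1 pool per library.

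Named genes are members with 10 or more reads in a library or 2 or more in each. Also named are the leading 4 of families with at least 5 listed members. Others named, apart from Slc2a3, are members of small groups, neighbours, or are said to be chosen after their values were seen. A member that meets this rule is not reported here. The members, families and thresholds were chosen with earlier results of these data known. The alternatives were read minima of 2 or 10, redundant reads, further Slc families and Slco, chromosomes 1 to 19 and X, other library totals, leaving out the leading member, a fold of 3 and a minimum of 20 reads.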

Additional observations from a re-analysis of the deposited data

How the results depend on the processing

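Of 44 values of 9 results under the alternatives, 18 stayed within 1.5 times the reported count or inside the reported interval, 25 moved and 1 reversed. Members listed in library 1, library 2 and both (78, 57 and 26) fell to 28, 21 and 9 at 2 or more nonredundant reads, to 7, 4 and 2 at 10 or more, and to 39, 25 and 11 at 2 or more redundant reads, while the share of annotated Slc genes listed (31.7%) became 11.6%, 2.62% and 15.4%, since a higher minimum keeps fewer genes. The members' share of library 1 (1.01%) and library 2 (1.19%) became 0.493% and 0.530% of redundant reads, 1.20% and 2.07% without the 10 leading genes of each library, and 0.507% and 0.384% without the leading member. With the 5 other families and Slco added the share of library 2 was 10.4%, through the 4497 reads of Slc8b1. The ratio of the shares, 0.846, became 0.583 without the 10 leading genes and 0.102 with the added families, and reversed to 1.32 without the leading member of each library. Members over 10-fold higher in library 1 numbered 4, and 9 by redundant reads, 1 without the 10 leading genes and 2 at a minimum of 20 reads. Those higher in library 2 numbered 2, and 4 by redundant reads. The share of all listed genes called is given for the main setting alone, 5.45% in library 1 and 3.28% in library 2. These changes are therefore not a result about solute carriers. The cause of each change in these counts was not tested. Leaving out Slc4a1ap, Slc6a19os and Slc7a6os, an alternative chosen after seeing the data, left 76 members in library 1 and 56 in library 2. No paired analysis was possible because the 2 samples of a library share 1 column of reads, and for the same reason no replicate could be left out. At this depth a gene with 1 read cannot be told from a gene with 0.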
